A study of Ovis aries with 56 samples.

Results

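The left amygdala of untreated ewes was set against the left amygdala of untreated rams in sheep of the Scottish Mule Texel Cross Breed, all 50 weeks old. Of the 14 arrays made from untreated left amygdala, 10 were used, 5 of ewes and 5 of rams. An array was kept by the ratios of the spike-in RNAs added to it, and no sheep gene entered that choice. The description covers named autosomal genes, of which 698 were tested out of 770 on the array, each through the brightest of its tested probes.

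The whole study held 56 arrays of left or right amygdala from same-sex twins, of which 41 from 25 animals were used. In each pair of twins 1 animal received implants of goserelin acetate, which stimulates and in lasting use desensitises the receptor for gonadotropin-releasing hormone (GnRH), and its twin was left untreated. An implant of 3.6 mg was placed every 4 weeks, with the first at an age of 28 weeks in ewes and 8 weeks in rams. Every array set the RNA of 1 side of 1 animal against a pool of amygdala RNA that held both sexes, both sides and both treatments, and the values are log2 ratios of that kind. The groups named in the text are untreated left ewes (5 arrays) and rams (5), untreated right ewes (5) and rams (4), and goserelin-treated left ewes (5) and rams (6). Within a group each array is a different animal. The ewes and rams were kept apart for the whole of the study, so the sex of an animal and its housing cannot be told apart.

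The amygdala is a group of forebrain nuclei that take part in fear, social and reproductive behaviour, and several of its nuclei carry receptors for sex steroids. Activins, inhibins and the transforming growth factors beta (TGF-beta) are related secreted ligands. Activins and TGF-beta act through paired receptor kinases and SMAD proteins, and in the brain they act on neurons, glia and vessels. Microglia are the resident immune cells of the brain and respond to disturbance by releasing cytokines and chemokines. The tissue is bulk RNA, so fewer cells of a type and less RNA per cell cannot be told apart.

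The arrays carry limits that touch every value below. All 5 ewe arrays had the sample in Cy3, as did ram replicates 2 to 5, while ram replicate 1 had it in Cy5. The 4 untreated left arrays that were left out all had the sample in Cy5, and their spike-in slopes were 0.15 to 0.185, against 1.01 to 1.11 in the 10 that were kept. The labels do not state the direction of the ratios, and sample over pool is the likely reading. Its basis is a probe for transcript FE028749, which parts the sexes: it averaged -3.69 ± 1.20 in ewes and 1.05 ± 0.14 in rams (SD, n = 5 each), and read the other way round the ewes would exceed by that much a pool that itself holds ewes. The labelled sexes did not overlap on this probe or on that for CU655072, at 0.16 to 0.68 in ewes and -1.53 to -0.97 in rams. No gene or chromosome is given here for either probe, and they are described by how they part the labelled groups. Their separation therefore cannot check the labels of sex. As every value is a ratio to pooled amygdala, the ratios cannot show whether the dissected tissue was amygdala.

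Arrays within the 2 groups differed from each other more than arrays of other groups did. The median SD of a probe between arrays was 0.348 in untreated left ewes and 0.345 in untreated left rams, against 0.244 to 0.316 in the other 6 groups. On the first principal component of all 41 arrays, ewe replicates 3 and 6 had scores of 36.4 and 38.7, against -28.0 and -21.8 for ram replicates 3 and 4. The other ewes scored -8.2 to 3.2 and the other rams -8.4 to -5.5. Among the 31 arrays of the other groups, 5 also lay beyond 20 in either direction. The 4 arrays were picked out by their values, and they are the ewes and rams that lie farthest apart, so a comparison without them starts from closer groups. Each result is therefore given with all 10 arrays and, where it is called, without these 4.

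**Figure D1:**
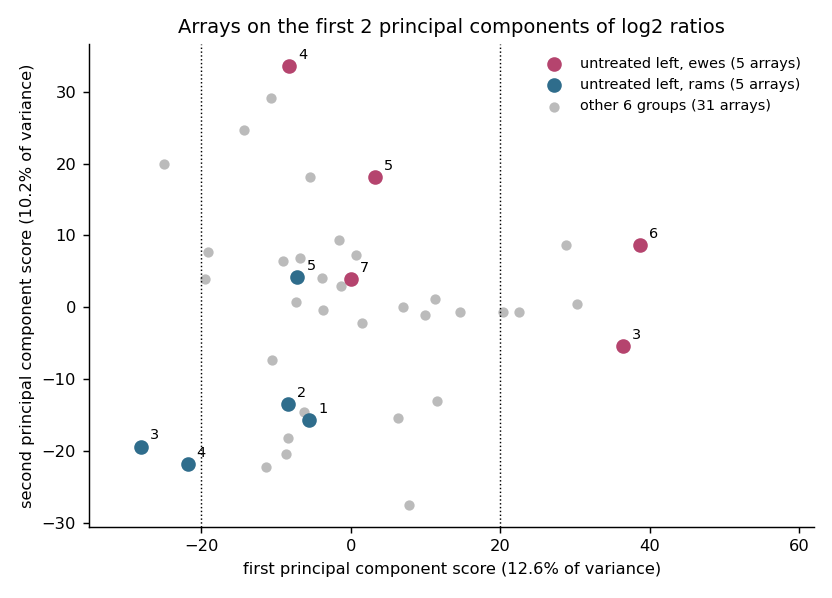
Scores of the 41 arrays on the first 2 principal components of the log2 ratios (horizontal axis 12.6% and vertical axis 10.2% of variance), with the replicate numbers of untreated left ewes and rams beside their points and the other 6 groups in grey. Dotted lines mark scores of -20 and 20: ewe replicates 3 and 6 lie to the right of them and ram replicates 3 and 4 to the left.

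Across all 12930 probes tested, 334 were higher (2.58%) and 327 lower (2.53%) in ewes than in rams at a Benjamini-Hochberg adjusted p under 0.05 (limma, two-sided, 1 fit over the 41 arrays with dye as a term), which is 5.11% of the probes. Of the 698 named autosomal genes 33 passed, or 4.73%, with 20 higher (2.87%) and 13 lower (1.86%) in ewes. The share is close to that of all probes. These calls rest on a spread shared by all 8 groups. When the 2 groups were fitted alone, no probe of 14024 passed (limma, lowest adjusted p = 0.0608) and 2073 had an unadjusted p under 0.05; the same fit with no dye term called 2 probes (0.0143%) and no named autosomal gene. Without ewe replicates 3 and 6 and ram replicates 3 and 4, 5 probes passed (0.0413%) and no named autosomal gene did (lowest adjusted p = 0.115), with 66 of 625 at an unadjusted p under 0.05.

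The called genes were of moderate size. Differences ran from 0.48 to 2.56 on the log2 scale in the 20 higher genes, with a median of 0.78, and the 13 lower genes fell by 0.46 to 1.43, with a median of -0.90. The median over all named autosomal genes tested was -0.02. The ewe and ram arrays did not overlap in 13 of the 33, 6 of them higher and 7 lower, a count that the choice of called genes favours. Over the 486 named autosomal genes measured on all 10 arrays, called or not, 23 did not overlap, beside 4.36% of all probes so measured. Without the 4 arrays the median difference was 0.42 for the 20 higher genes and -0.74 for the 13 lower ones. Leaving out any 1 of the 10 arrays gave fits in which EEF1D, ACVR2A and TRPM7 passed all 10 times and each of the others between 3 and 9 times. Of the 33 genes 23 had another tested probe, which lay on the same side of 0 in all 23 and passed in 13. Some of these probes lay close to 0, as in TRPM7 (-0.09) and TXNIP (0.19). They read the same RNA on the same arrays and so are not independent evidence. The share over all genes with more than 1 probe was not worked out. With no dye term in the fit over all arrays, 5 of the 30 called genes that the naming rule takes lost their call: IL6, INHA, ATP6V0C, RPS6 and LOC654331 (limma; adjusted p = 0.0943, 0.0889, 0.0609, 0.063 and 0.0511). With array weights 10 of the 30 lost it, among them IL6 and INHA (adjusted p = 0.0593 and 0.0771).

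**Figure D2:**
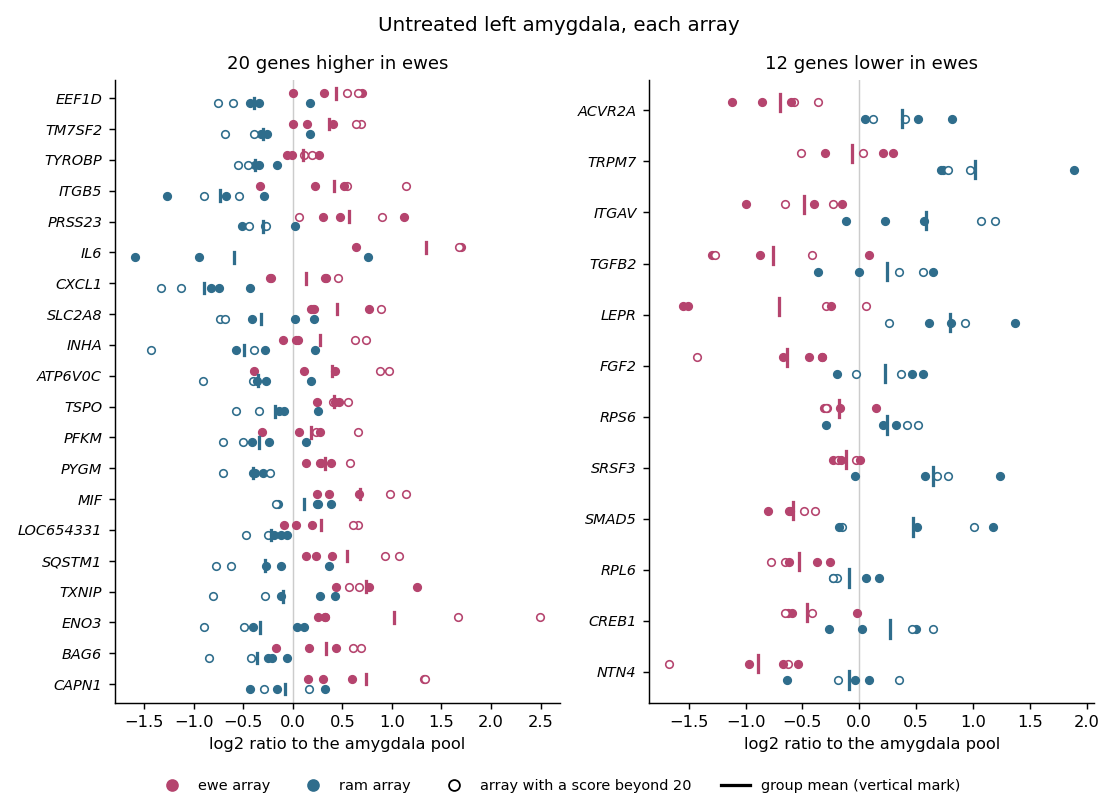
Log2 ratios to the amygdala pool of 32 of the 33 named autosomal genes past the threshold, for each of 5 ewe and 5 ram arrays of untreated left amygdala, in order of p within each panel. Vertical marks are group means and open points are the 4 arrays with a score beyond 20; in TYROBP, PYGM, ACVR2A and SMAD5, among others, all ewe points lie to one side of all ram points.

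**Figure D3:**
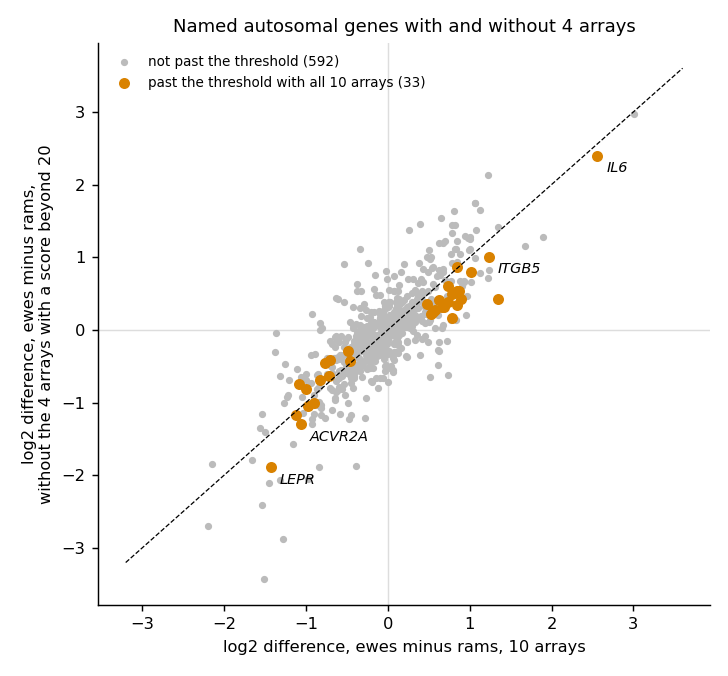
Ewes minus rams (log2) for the 625 named autosomal genes that could also be fitted without ewe replicates 3 and 6 and ram replicates 3 and 4, with all 10 arrays on the horizontal axis and without the 4 on the vertical axis; the dashed line marks equal values. ACVR2A and LEPR lie farther from 0 without the 4 arrays, while most of the called genes on the right lie nearer to it.

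The activin receptor ACVR2A, the ligand TGFB2 and the transducer SMAD5 were lower in ewes, and INHA, the alpha subunit that makes inhibin out of an activin subunit, was higher. ACVR2A, which binds activins, read -0.36, -1.12, -0.86, -0.57 and -0.60 in ewe replicates 3 to 7, against 0.05, 0.82, 0.12, 0.40 and 0.52 in ram replicates 1 to 5. Every ewe lay below every ram. The difference was -1.06 ± 0.24 (SE; adjusted p = 0.0132), and without the 4 arrays it was -1.30 (unadjusted p = 0.000349, adjusted p = 0.136). The other probe of ACVR2A gave -0.91 and also passed.

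TGFB2, which encodes TGF-beta 2, read -0.42, -0.87, -1.30, -1.27 and 0.09 in ewe replicates 3 to 7, against -0.36, 0.65, 0.56, 0.35 and 0.00 in ram replicates 1 to 5. Ewe replicate 7 stood above 2 of the rams, so the groups overlapped. The difference was -1.0 ± 0.24 (adjusted p = 0.0164), and -0.81 without the 4 arrays (adjusted p = 0.341). SMAD5, which passes on signals of bone morphogenetic proteins, was at -0.58 ± 0.15 in ewes and 0.47 ± 0.63 in rams (SD, n = 5 each). The ewes were tight, between -0.80 and -0.39, and all lay below the rams, which ran from -0.18 to 1.18. Its difference was -0.98 ± 0.26 (adjusted p = 0.0232), against -1.05 without the 4 arrays (adjusted p = 0.24).

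INHA read 0.63, -0.10, 0.03, 0.74 and 0.05 in ewe replicates 3 to 7, against 0.22, -0.28, -1.43, -0.39 and -0.57 in ram replicates 1 to 5. The 2 highest values were the ewes with high component scores, and the lowest was ram replicate 3. The difference was 0.90 ± 0.23 (adjusted p = 0.0215), and 0.42 without the 4 arrays (unadjusted p = 0.123). The second probe of INHA gave 0.46 and did not pass (adjusted p = 0.26). INHBA, the beta A subunit shared by activin A and inhibin A, averaged -0.71 ± 0.73 in ewes and 0.38 ± 0.34 in rams (SD, n = 5 each) and did not pass (-1.05, adjusted p = 0.0552). Nor did the activin receptors ACVR1 (-0.57, adjusted p = 0.0724), ACVR1B (0.30) and ACVR2B (0.13), or the activin-binding protein FST (-0.25). Of 18 tested genes of the GnRH, gonadotropin, activin and prolactin list, INHA passed as higher and ACVR2A as lower, and the list's median was 0.12.

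ITGB5 and ITGAV encode integrin subunits that pair with each other to bind vitronectin and other matrix proteins, and they moved in opposite directions. ITGB5 was at 0.55, 0.52, -0.33, 1.14 and 0.22 in ewe replicates 3 to 7, against -0.67, -0.29, -0.54, -0.89 and -1.27 in ram replicates 1 to 5. Only ewe replicate 5 lay within the range of the rams, and the difference of 1.23 ± 0.30 passed (adjusted p = 0.0171). ITGAV was at -0.23, -0.15, -1.0, -0.65 and -0.40 in ewes, against 0.23, 0.57, 1.19, 1.07 and -0.12 in rams. All ewes lay below all rams, with a difference of -1.08 ± 0.25 (adjusted p = 0.0132). Without the 4 arrays the differences were 1.00 for ITGB5 and -0.74 for ITGAV (adjusted p = 0.335 and 0.382). The second probes gave 1.35 for ITGB5, which passed, and -0.88 for ITGAV, which did not.

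NTN4 encodes netrin 4, a secreted matrix protein related to axon guidance cues, and was lower in ewes at -0.89 ± 0.46, against -0.09 ± 0.37 in rams (SD, n = 5 each; difference -0.77, adjusted p = 0.0362). Its difference without the 4 arrays was -0.45 (adjusted p = 0.571). PRSS23, a serine protease, was higher in ewes. Its ratios were 0.06, 0.31, 0.48, 0.90 and 1.12 in ewes and -0.28, -0.51, -0.44, -0.27 and 0.02 in rams. The lowest ewe stood just above the highest ram. The difference was 0.85 ± 0.21 (adjusted p = 0.0173) and 0.86 without the 4 arrays (unadjusted p = 0.00314, adjusted p = 0.22), and the second probe gave 0.81 and passed.

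TYROBP, the signalling adaptor of several receptors on microglia, was higher in ewes and read 0.19, -0.06, -0.01, 0.11 and 0.26 in ewe replicates 3 to 7, against -0.38, -0.16, -0.55, -0.45 and -0.34 in ram replicates 1 to 5. Spread within each sex was small (SD 0.14 in ewes and 0.14 in rams) and the groups did not overlap. The difference was 0.48 ± 0.12 (adjusted p = 0.0167) and 0.36 without the 4 arrays (unadjusted p = 0.0247, adjusted p = 0.389), and the second probe gave the same 0.48 without passing (adjusted p = 0.0942). TSPO, the outer mitochondrial membrane protein that is also used as a marker of activated microglia, averaged 0.42 ± 0.12 in ewes and -0.18 ± 0.31 in rams (SD, n = 5 each; difference 0.63, adjusted p = 0.0237), and without the 4 arrays its difference was 0.41 (adjusted p = 0.504).

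Of 11 tested genes on the microglia and antigen presentation list only TYROBP passed, 7 of 11 differences were positive and the median was 0.34. ITGAM and ITGB2, the subunits of complement receptor 3, differed by 0.83 and 0.55 (adjusted p = 0.538 and 0.239), FCER1G by 0.34 and CTSS, a lysosomal protease of microglia, by -0.05. The mean ratio over the 8 list members present on all 10 arrays ran from -0.47 to 0.75 in ewes and from -0.31 to 0.18 in rams, so the summed marker level overlapped between the sexes. Its part in the TYROBP difference was not tested.

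CXCL1, a chemokine that draws neutrophils, read -0.22, 0.34, 0.33, 0.46 and -0.23 in ewes, against -0.82, -0.43, -1.13, -1.33 and -0.74 in rams. No ewe fell within the rams' range. The difference was 1.02 ± 0.26 (adjusted p = 0.0202), with 1.06 on its second probe, and 0.80 without the 4 arrays (adjusted p = 0.391). IL6, a cytokine of acute inflammation, showed the largest difference among the called genes, at 2.56 ± 0.54 (adjusted p = 0.0179), but only 3 arrays of each sex had a value. These were 1.70, 1.68 and 0.64 in ewe replicates 4, 6 and 7, against 0.76, -0.95 and -1.59 in ram replicates 1, 2 and 5. Ram replicate 1, the Cy5 array, lay above the lowest ewe, and the plain means differed by less than the fitted value, which carries the dye term. With no dye term the difference was 1.95 and no longer passed (adjusted p = 0.0943). Without the 4 arrays, which left 2 ewe and 3 ram values, it was 2.39 (adjusted p = 0.197).

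MIF, a cytokine that restrains glucocorticoid action, was at 1.14, 0.24, 0.67, 0.98 and 0.37 in ewes and -0.15, 0.39, -0.17, 0.24 and 0.25 in rams. The ewes with high component scores held the 2 highest values. Its difference of 0.58 ± 0.16 (adjusted p = 0.0284) was 0.28 without the 4 arrays (unadjusted p = 0.137). Among 22 tested cytokines, chemokines and receptors, IL6 and CXCL1 passed as higher and TGFB2 as lower. Of the 22 differences 16 were negative and the median was -0.37, but without the 4 arrays the median was 0.16. Interleukin 1 genes, which did not pass, had differences of -1.50 (IL1A) and -0.65 (IL1B), and TNF differed by -0.16. In the interferon response list none of 11 genes passed and ISG15 alone had an unadjusted p under 0.05 (limma; difference 1.08, adjusted p = 0.222).

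LEPR, which encodes the receptor of leptin, the hormone of fat stores, was lower in ewes. It read -0.29, -0.25, -1.55, 0.06 and -1.51 in ewe replicates 3 to 7, against 0.61, 1.37, 0.93, 0.26 and 0.81 in ram replicates 1 to 5. Ewe replicates 5 and 7 were far below the other ewes, and all ewes lay below all rams. The difference was -1.43 ± 0.34 (adjusted p = 0.0168), and it was larger without the 4 arrays (-1.89, unadjusted p = 0.000161, adjusted p = 0.115). Its 4 other probes, all on the same side, gave -0.14, -1.03, -1.73 and -2.11, and 1 of them passed. All LEPR probes gave weak signals. The 4 others lay between 5.35 and 5.53 in log2 brightness, and the median over the named autosomal genes tested was 5.84. The LEPR probe used here was brighter than those 4 but fell outside the brighter part of the probes, as did those of SMAD5 and IL6. The part of weak signal in these differences was not tested.

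TRPM7 is an ion channel with a kinase domain that carries magnesium and calcium. Its probe was at -0.51, 0.21, -0.30, 0.03 and 0.30 in ewes, against 0.72, 0.74, 0.97, 0.78 and 1.89 in rams. The rams stood above all ewes, with replicate 5 far above the other rams. The difference of -1.12 ± 0.26 passed (adjusted p = 0.0132) and was -1.17 without the 4 arrays (adjusted p = 0.209), but the second, dimmer probe gave -0.09 and did not pass, so the 2 probes disagreed in size.

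CREB1, the transcription factor that responds to cyclic AMP and calcium, was lower in ewes at -0.46 ± 0.26, against 0.27 ± 0.38 in rams (SD, n = 5 each; difference -0.70, adjusted p = 0.0345), and without the 4 arrays its difference was -0.42 (adjusted p = 0.596). FGF2, a growth factor of neurons, glia and vessels, read -0.33, -0.33, -0.44, -1.43 and -0.67 in ewes and 0.56, 0.46, 0.37, -0.03 and -0.20 in rams. Each ewe lay below each ram, though the gap was narrow, and the difference was -0.83 ± 0.20 (adjusted p = 0.0173) with -0.93 on the second probe and -0.69 without the 4 arrays (adjusted p = 0.264). FGF1, a growth factor of the same family, differed in the other direction by 0.82 and did not pass (adjusted p = 0.052). FGF2 was the only called gene among 10 tested growth factors and receptors of neurons and glia.

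Genes of translation and RNA handling were called in both directions. EEF1D, a subunit of the exchange factor that recharges elongation factor 1 alpha, had the lowest p among named autosomal genes. It read 0.55, 0.70, 0.32, 0.66 and 0.00 in ewe replicates 3 to 7, against 0.17, -0.34, -0.60, -0.75 and -0.43 in ram replicates 1 to 5. Only ram replicate 1, the Cy5 array, lay above the lowest ewe. The difference was 0.84 ± 0.16 (adjusted p = 0.00708), and 0.53 without the 4 arrays (unadjusted p = 0.0128, adjusted p = 0.325).

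The ribosomal proteins RPS6 and RPL6 were lower in ewes by less than 0.5. RPL6 averaged -0.53 ± 0.21 in ewes and -0.09 ± 0.19 in rams, and the groups did not overlap, while RPS6 averaged -0.18 ± 0.19 in ewes and 0.24 ± 0.31 in rams (SD, n = 5 each). Their differences were -0.46 and -0.48 (adjusted p = 0.0236 and 0.0198), and -0.43 and -0.29 without the 4 arrays. SRSF3, a splicing factor, was at -0.12 ± 0.11 in ewes and 0.65 ± 0.46 in rams (SD, n = 5 each; difference -0.72, adjusted p = 0.0222), with -0.87 on its second probe and -0.64 without the 4 arrays (adjusted p = 0.352). Over the 18 ribosomal proteins and translation factors tested, 9 differences were positive, 9 were negative and the median was 0.00. The ribosomal proteins other than RPL6 and RPS6 lay between -0.54 and 0.28, and none of them passed.

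Of 32 tested genes of glucose, glycogen and lipid metabolism, 4 passed, and all 4 were higher in ewes, beside 2.87% of all named autosomal genes called as higher. Over the list 15 differences were positive, 17 were negative and the median was -0.14. PYGM, glycogen phosphorylase of the muscle type, which also occurs in astrocytes, read 0.28, 0.39, 0.13, 0.58 and 0.27 in ewes, against -0.38, -0.30, -0.23, -0.70 and -0.40 in rams. The sexes were well apart on every array. The difference was 0.73 ± 0.20 (adjusted p = 0.0258) and 0.60 without the 4 arrays (unadjusted p = 0.0276, adjusted p = 0.398).

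SLC2A8, a glucose transporter held on membranes inside the cell, averaged 0.45 ± 0.35 in ewes and -0.32 ± 0.42 in rams (SD, n = 5 each; difference 0.74, adjusted p = 0.0212). PFKM, the muscle-type phosphofructokinase of glycolysis, averaged 0.18 ± 0.35 in ewes and -0.34 ± 0.31 in rams (SD, n = 5 each; difference 0.55, adjusted p = 0.0246). TM7SF2, a sterol reductase of cholesterol synthesis, averaged 0.37 ± 0.30 in ewes and -0.30 ± 0.30 in rams (SD, n = 5 each; difference 0.66, adjusted p = 0.0167). In each of these 3 genes ram replicate 1, the Cy5 array, lay within the range of the ewes. Without the 4 arrays these differences were 0.38, 0.24 and 0.31 (adjusted p = 0.565, 0.676 and 0.602). The brightest probes of the glycolytic genes GAPDH and LDHA each differed by 0.00, but their other probes disagreed. For GAPDH these gave 0.09, 0.11, 0.50 and 1.19, of which the last passed (adjusted p = 0.0132), and for LDHA -0.71 (adjusted p = 0.226). PPARGC1A, a coactivator of mitochondrial genes, differed by -0.82 without passing (adjusted p = 0.0516).

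ATP6V0C, a subunit of the proton pump of lysosomes and synaptic vesicles, was higher in ewes, at 0.97, -0.39, 0.43, 0.88 and 0.11 in ewes and 0.18, -0.27, -0.91, -0.40 and -0.36 in rams. Ewe replicates 3 and 6 held the highest values and ewe replicate 4 lay below 3 of the rams. The difference of 0.84 ± 0.22 (adjusted p = 0.0236) was 0.34 without the 4 arrays (unadjusted p = 0.192). SQSTM1, an adaptor that brings cargo to autophagy, showed the same arrays at the top, with 0.93 and 1.07 in ewe replicates 3 and 6 against 0.13 to 0.40 in the other ewes and -0.77 to 0.37 in rams, and its difference of 0.78 (adjusted p = 0.034) was 0.17 without the 4 arrays.

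TXNIP, an inhibitor of thioredoxin, read 0.57, 1.25, 0.77, 0.67 and 0.44 in ewes and 0.43, -0.12, -0.80, -0.28 and 0.27 in rams. Its groups just failed to touch, and the difference was 0.78 ± 0.22 (adjusted p = 0.0348), though its second probe gave 0.19 and the difference without the 4 arrays was 0.49 (adjusted p = 0.524). TXNIP was the only called gene of 7 on the stress and chaperone list, where the inducible heat shock protein HSPA1A differed by 0.95 (adjusted p = 0.0542) and by 0.21 without the 4 arrays. LOC654331 (difference 0.53, adjusted p = 0.0319; 0.22 without the 4 arrays) completes the 15 higher genes of lowest p. The other called genes were the glycolytic enzyme ENO3 (1.34), the chaperone BAG6 (0.69) and the protease CAPN1 (0.87), with adjusted p of 0.0367, 0.0386 and 0.0416. They were chosen for mention after their values were seen, to complete the count of 20. In ENO3 ewe replicates 3 and 6 were at 2.49 and 1.67 and no other array exceeded 0.33. The differences without the 4 arrays were 0.42 for ENO3, 0.32 for BAG6 and 0.54 for CAPN1 (adjusted p = 0.789, 0.719 and 0.571).

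No receptor or enzyme of the steroid list passed (limma), and 1 of 11, NR3C1, had an unadjusted p under 0.05. Of 11 tested genes of this list 10 had a difference at or below 0, with a median of -0.51 and -0.18 without the 4 arrays. ESR1, oestrogen receptor alpha, averaged -1.90 ± 0.45 in ewes and -1.41 ± 1.13 in rams (SD, n = 5 each; difference -0.59, adjusted p = 0.759). Its rams ran from -2.74 to 0.20, so the spread among rams exceeded the difference. ESR2, oestrogen receptor beta, had 3 ewe and 4 ram values and a difference of -0.61 (adjusted p = 0.711). PGR, the progesterone receptor, differed by 0.83 over 3 values in each sex (adjusted p = 0.60).

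CYP19, aromatase, which makes oestrogen from androgen, had 2 values in each sex, at -2.24 and -0.94 in ewes and 1.33 and -1.42 in rams. They overlapped, and the difference of -1.19 had an SE of 1.08 (adjusted p = 0.576). HSD11B1, which regenerates cortisol, averaged -0.72 ± 0.55 in ewes and -0.27 ± 0.52 in rams (SD, n = 5 each; adjusted p = 0.29). NR3C1, the glucocorticoid receptor, was the list member of lowest p, with -0.70 ± 0.25 (adjusted p = 0.0921). Its ewes lay between -1.06 and -0.14 and its rams between -0.66 and 1.35.

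Among hormone and neuropeptide receptors, OXTR, the oxytocin receptor, was low in 4 of 5 ewes. It read -1.56, -1.78, -0.06, -1.83 and -1.89 in ewe replicates 3 to 7, against 0.31, -1.55, 0.08, 0.49 and -0.29 in ram replicates 1 to 5. Ewe replicate 5 lay among the rams and ram replicate 2 among the ewes, and the difference of -1.21 ± 0.65 did not pass (adjusted p = 0.276). GNRHR, the receptor that goserelin acts on, had 3 ewe values from -1.39 to 1.35 and 2 ram values of -0.38 and -0.72 (difference 0.76, adjusted p = 0.671). LHCGR, the receptor of luteinizing hormone, had 3 values in each sex and a difference of 1.68 (adjusted p = 0.242). Of 25 neuropeptide and receptor genes LEPR alone passed, 13 differences were positive and the median was 0.01, or -0.16 without the 4 arrays.

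In 9 lists with at least 3 tested genes, which include the steroid and interferon lists above, none of 83 different genes passed. Of these 83 genes 14 had an unadjusted p under 0.05 (limma), beside 138 of all 698 named autosomal genes tested (19.8%). The lowest adjusted p in the 9 lists was 0.0552 in EDNRB, the endothelin B receptor of astrocytes and vessels. EDNRB differed by -0.82 and by -1.03 without the 4 arrays, with ewes between -1.08 and -0.30 and rams between -0.50 and 1.16. Of 17 endothelial and vascular genes 13 differences were negative, with a median of -0.34, and of 13 genes of growth hormone and insulin-like growth factors 10 were positive, with a median of 0.16. Among immediate early and clock genes JUN differed by -0.40 with no overlap between the sexes (adjusted p = 0.0594), but its second probe gave 0.39. Among 5 genes of amines and acetylcholine ADRB1, the beta 1 adrenergic receptor, had the lowest p, with -0.98 over 3 values in each sex (adjusted p = 0.491).

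No tested marker of astrocytes, neurons, vessels, blood, choroid plexus or pituitary passed. Astrocyte markers, of which 6 were tested, had a median of -0.07, and GFAP, the astrocyte filament, differed by 0.39 (adjusted p = 0.45) and by -0.34 without the 4 arrays. Their mean ratio ran from -0.33 to 0.25 in ewes and from -0.13 to 0.37 in rams. For neurons only the filament NEFH was tested (-0.47, adjusted p = 0.539), and no oligodendrocyte marker was. The 8 pituitary markers had a median of 0.18, with PRL at 0.67 (adjusted p = 0.334). For the choroid plexus, TTR differed by -0.12 and AQP1, a water channel, by 3.01, with values of 0.88 and 1.24 in 2 ewes and -0.95 and -2.61 in 2 rams (adjusted p = 0.07). The blood genes HBB and AHSP differed by 0.12 and -0.01, and the part of any of these markers in the called genes was not tested.

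**Figure D4:**
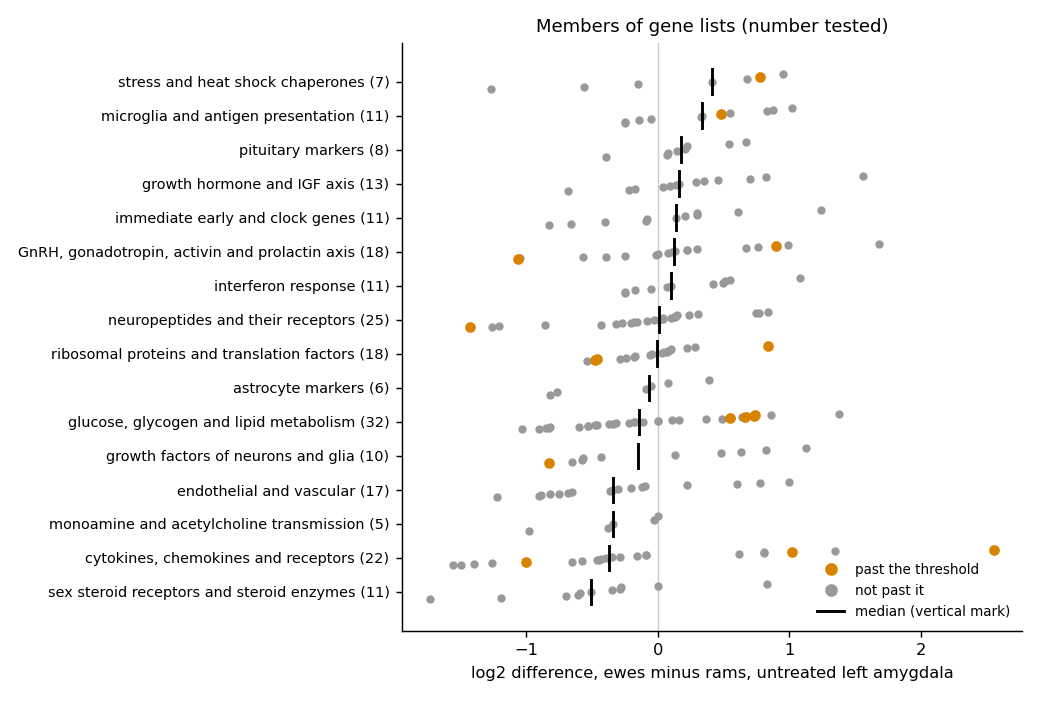
Ewes minus rams (log2, horizontal axis) in untreated left amygdala for autosomal members of 16 lists with at least 5 tested; orange points passed the threshold and vertical marks are list medians. The metabolism list has its 4 called genes between 0.55 and 0.74 and its median at -0.14.

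On the right side the same sex difference was called in few probes. Untreated right ewes against rams gave 10 called probes of 12930 (0.0773%) and no named autosomal gene of 698 (0%; limma, lowest adjusted p = 0.0929, 54 at an unadjusted p under 0.05). Among the untreated animals, 3 ewes and 3 rams had arrays of both sides in use. In the fit all right arrays of these groups counted as having the sample in Cy5. Right ewe replicate 7 is labelled Cy3, but its spike-in slope was negative (-1.03). Its ratios were therefore multiplied by -1 and its dye was reversed. Side and dye were thus nearly aligned, and a dye effect that differs by sex cannot be told apart from a difference between the sides. For the 20 genes higher on the left the median right difference was 0.02, and for the 13 lower genes it was -0.09.

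A test of left minus right sex differences called 129 of all probes (0.998%) and 8 of 698 named autosomal genes (1.15%). Without the 4 arrays it called 0 probes. Of the 8 genes, 5 were also called on the left. MIF had the lowest p, with differences of 0.58 on the left and -0.68 on the right. Its right-side values were -0.49, 0.17, 0.16, -0.14 and 0.07 in ewes, against 0.51, 0.71, 0.67 and 0.65 in rams. On the right all ewes lay below all rams, and the left minus right value was 1.26 ± 0.22 (adjusted p = 0.00552), or 0.96 without the 4 arrays (adjusted p = 0.133).

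TYROBP was higher in ewes on the left by 0.48 and differed by -0.27 on the right, a left minus right value of 0.75 (adjusted p = 0.0222). INHA differed by 0.90 on the left and -0.46 on the right, a value of 1.36 (adjusted p = 0.0327). LOC654331 differed by 0.53 on the left and -0.27 on the right, a value of 0.80 (adjusted p = 0.0491), and RPL6 by -0.46 on the left and 0.19 on the right, a value of -0.65 (adjusted p = 0.0489). Of these, with no dye term, TYROBP and MIF still passed (adjusted p = 0.0257 and 0.00821), while INHA, RPL6 and LOC654331 did not (0.112, 0.0635 and 0.0858). The other 3 genes, named after their values were seen, were the actin regulator CFL1 (1.81), the ferritin heavy chain FTH1 (-0.84) and the ATP synthase subunit ATP5MC1 (0.50). With no dye term CFL1 still passed (limma; adjusted p = 0.0348), while FTH1 and ATP5MC1 did not (0.109 and 0.0609). Without the 4 arrays the values of the 3 genes were 1.49, -0.51 and 0.46, and none passed (limma; adjusted p = 0.231, 0.385 and 0.251).

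Among animals treated with goserelin the left side gave 283 called probes (2.19%) and 10 named autosomal genes (1.43%), 9 of them lower in ewes (1.29%). RPL6 was the only gene called in both untreated and treated animals, at -0.46 untreated and -0.45 treated (adjusted p = 0.0236 and 0.0381). The 20 higher genes had a median of 0.26 in treated animals and the 13 lower ones a median of -0.03. LEPR differed by 0.53 and ITGB5 by -0.05, while TSPO (0.51), ATP6V0C (0.60) and MIF (0.48) differed in the same direction as in untreated animals without passing. HSD11B1 was called in treated animals at -1.12 (adjusted p = 0.0323), against -0.51 in untreated ones, and GNRHR at -3.33 (adjusted p = 0.0462), against 0.76. For neither gene did the difference between untreated and treated animals pass (limma; adjusted p = 0.483 and 0.164). The untreated GNRHR value rests on the few arrays given above. Implants began at 28 weeks in ewes and 8 weeks in rams, so in treated animals sex and length of treatment cannot be told apart.

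The difference between untreated and treated animals was itself called for no named autosomal gene (0%; limma, lowest adjusted p = 0.101, in LEPR, with 96 of 698 at an unadjusted p under 0.05) and for 3 probes in all (0.0232%). So for the genes named here that passed in untreated animals and not in treated ones, the difference between the 2 settings was tested and did not pass. The treated and untreated animals were twins, with both left arrays in use for 5 pairs of ewes and 3 pairs of rams.

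**Figure D5:**
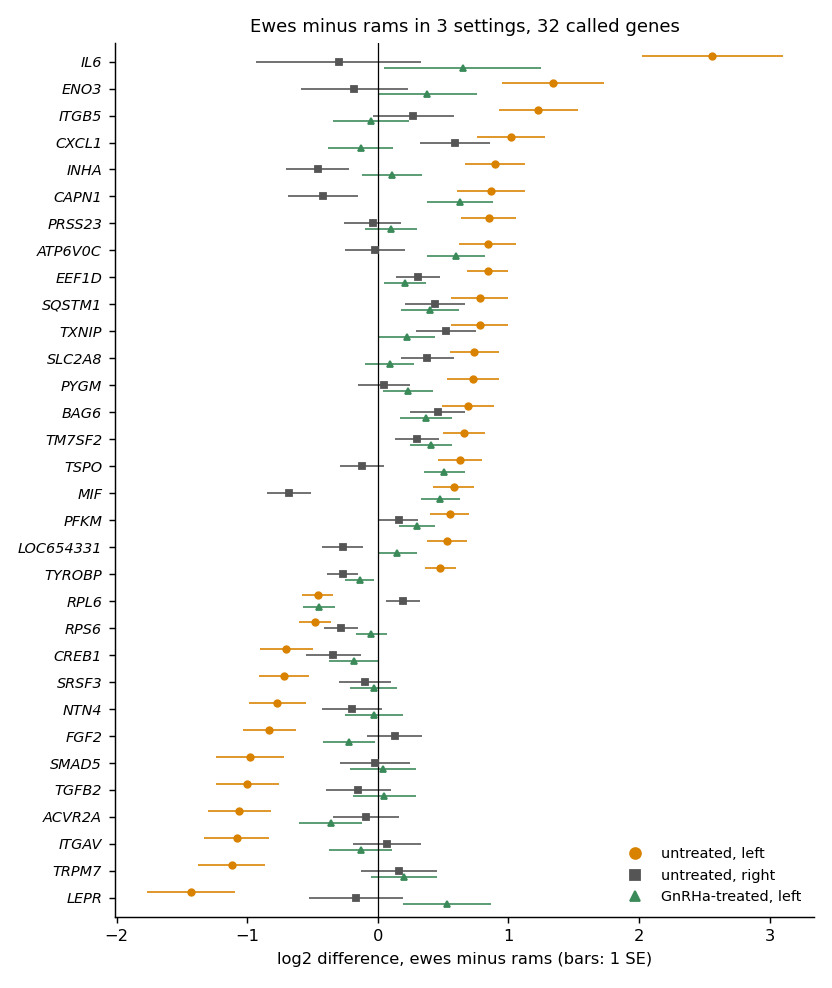
Ewes minus rams (log2, bars 1 SE) for 32 of the 33 genes called in untreated left amygdala, in untreated left, untreated right and goserelin-treated left amygdala. The orange points of the untreated left side were chosen for their distance from 0, and the grey points of the right side lie mostly near 0, with MIF at -0.68.

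The genes most like the leading ones over all 41 arrays were found by Pearson correlation of log2 ratios, as a description. EEF1D was followed most closely by CXCL1 (r = 0.72), the triglyceride enzyme DGAT1 (0.72) and SQSTM1 (0.70). About the group means, which removes the differences between groups, these correlations were 0.60, 0.70 and 0.50. DGAT1 differed by 0.52 between ewes and rams and did not pass (adjusted p = 0.0501). ACVR2A was followed by the amino acid transaminase BCAT1 (0.58), the cyclic AMP responsive factor CREM (0.57) and the thyrotropin-releasing hormone receptor TRHR (0.55), none of which passed (limma; adjusted p = 0.145, 0.261 and 0.259).

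The authors' own values run the same way in most of the called genes. The authors' deposited table gives each group's log2 fold change against the pool over all 7 arrays, including those left out here. Of the 33 called genes 32 had in the authors' deposited table an ewe value on the same side of the ram value as in the fit, from the same arrays and so not as independent evidence. The choice of called genes favours such a count, and the share over all named autosomal genes was not worked out. Some gaps in the authors' deposited table were small, as in ENO3 (0.12 in ewes, 0.08 in rams) and LEPR (-0.04 in ewes, 0.06 in rams). EEF1D had 0.18 in ewes and -0.08 in rams in the authors' deposited table, and CXCL1 had 0.08 in ewes and -0.58 in rams. The exception in the authors' deposited table was IL6, at 0.03 in ewes and 0.05 in rams.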

How the data were processed

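Two-colour Agilent arrays were scanned and read with Agilent Feature Extraction 9.1, per the submitters' processing notes. The deposited values per array are log2 ratios, taken as sample over pool; background correction and normalization are not given in the sources used here. The authors also deposited, for each group, log2 fold changes against the pool, mean log2 brightness and adjusted p-values, of which the fold changes and brightness are used.

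For each array the mean ratios of the spike-in probes, median-centred, were regressed on the median of the other arrays. Arrays with an absolute slope of at least 0.5 were kept (41 of 56), and 3 with a negative slope, none of untreated left amygdala, were multiplied by -1 and given the opposite dye. Control spots were dropped and spots of a probe averaged, giving 15008 probes. Of these 1502 had a gene name, for 853 genes, from accessions, symbols, old names and gene numbers matched to a RefSeq gene table of assembly ARS-UI_Ramb_v3.0, which also told autosomes from the X; 92 kept the name in the files alone. A probe was tested if each of the 8 groups had 2 or more values of it, and no missing value was imputed.

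limma 3.58.1 in R 4.3.3 fitted group means and dye, with animal as a random block (within-animal correlation 0.147), and eBayes gave two-sided p-values, adjusted by Benjamini and Hochberg over all probes of a comparison. The script was tested on simulated data. Depth has no meaning for arrays; the number of arrays limits the precision. Tables were made with pandas 2.3.3 in Python 3.11.15.

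The rule for named genes takes up to 15 higher and 15 lower called genes by p, the member of lowest p in each list with at least 3 tested genes, fixed steroid, GnRH and stress genes, and the 3 genes most like each leading gene. A called gene that enters the counts, medians and ranges is not reported here by name, and the list that holds it is not described. The members, lists and tests were chosen with earlier results of these data known.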

Additional observations from a re-analysis of the deposited data

Results flagged for a closer look

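In 5 named genes the sex difference on the left differed from that on the right in the untreated animals, by the test of left minus right in the fit over all arrays. The values were 1.36 for INHA, 1.26 for MIF, 0.80 for LOC654331, 0.75 for TYROBP and -0.65 for RPL6 on the log2 scale. Without ewe replicates 3 and 6 and ram replicates 3 and 4 they were 0.87, 0.96, 0.49, 0.63 and -0.61, and none passed (limma; adjusted p = 0.296, 0.133, 0.373, 0.198 and 0.224). The left ewe arrays had the sample in Cy3 and the right ones counted as Cy5, with the dye of right ewe replicate 7 reversed from its label. The part of dye in these values was not tested beyond the fit with no dye term.

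A single array stood far from the rest of its group in 2 genes. In OXTR ewe replicate 5 was at -0.06 and the next ewe at -1.56. In TRPM7 ram replicate 5 was at 1.89 and the next ram at 0.97. Chance gives such a gap in about 1 of 20 groups, and 87 groups of arrays were tested, so the 2 found are no more than chance gives.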

How the results depend on the processing

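Over the alternatives listed here the called genes kept their direction and many lost their call. Of 1347 values for the 51 named genes under 27 alternatives, no called gene changed sign, 1048 stayed on the same side of the threshold, 266 lost their call, 29 gained one and 4, all of genes not called, turned sign (CREM and GNRHR with all 56 arrays, ESR2 without ewe replicate 6 and without the 4 arrays). Of the 27, the alternative that took the spike-in slope within the untreated left arrays kept the same arrays. Its 51 values, all counted as staying on the same side, therefore repeat the fit reported. Only the 30 called genes among the 51 could lose a call, so the 1048 include values of genes not called in the fit reported. With the 2 groups fitted alone, all 30 lost their call and the other 21 genes were counted as staying on the same side. The number of probes called in untreated left amygdala, 661 in the fit reported, was 308 under quantile normalization, 5 with all 56 arrays as deposited, 0 with the 2 groups fitted alone and 0 with their Cy3 arrays alone, and 2 with the 2 groups alone and no dye term. The Cy3 fit, the fit of the 2 groups alone with no dye term and the fit without 4 arrays were added after seeing the data. Named autosomal genes called, 33 in the fit reported, were 19 under quantile normalization and 0 in each of those fits and with all 56 arrays. Leaving out 1 array at a time gave 127 to 929 probes and 5 to 46 named genes. The lowest counts came without ram replicate 3 (127 probes, 5 genes) and ewe replicate 6 (147 probes, 6 genes), followed by ram replicate 4 (250 probes, 16 genes) and ewe replicate 3 (374 probes, 23 genes). Without all 4 of them 5 probes and 0 named genes were called.

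For untreated right amygdala, with 10 probes called, the count was 0 with all 56 arrays, 27 in the brighter part of the probes, 16 under quantile normalization, 159 with array weights, 21 without the 4 arrays and 10 to 21 without 1 array. For goserelin-treated left amygdala, with 283, it was 8 with all 56 arrays, 2207 with array weights, 439 without the 4 arrays and 251 to 399 without 1 array. The test of left minus right, with 129, gave 71 with no dye term, 49 with no animal block, 0 with all 56 arrays, 282 with probes measured on all arrays, 343 in the brighter part of the probes, 84 under quantile normalization, 408 with array weights, 0 without the 4 arrays and 16 to 324 without 1 array. The test of untreated minus treated, with 3, gave 6 with no animal block, 7 with twin pair as the block, 0 with all 56 arrays, 5 with each array centred, 16 with array weights, 12 without the 4 arrays and 1 to 10 without 1 array. The cause of these shifts was not tested. No paired analysis of ewes against rams was possible because they come from different twin pairs. For the tests of side and of treatment, the fit reported linked the arrays of an animal through the animal block. Twin pairs entered only the alternative with twin pair as the block.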
